A study of Mus musculus with 28 samples.

Results

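The loss of Ehmt1 was followed through the first steps of differentiation in mouse embryonic stem cells, by comparing each Ehmt1 knockout (KO) clone 32 h after withdrawal of the 2i inhibitors with the same clone in 2i. The libraries were chosen by genotype and time point: clones KO1 and KO2, each sequenced once in the naive state (named ESC) and once at 32 h, which makes 4 of the 28 samples of the series. The series profiles RNA of wild type (WT) cells, of single KO lines for Ehmt1, Zic2 or Zfp281, and of lines without both Ehmt1 and Zic2. All lines derive from RGd2, a female line with a destabilised GFP and a blasticidin resistance gene under Rex1 control (Rex1 is the older name of Zfp42), so every group compared here carries that reporter. ESC cells grew on gelatin in N2B27 with 3 µM CHIR99021, which inhibits Gsk3 and so holds Wnt signalling on, and 1 µM PD0325901, which inhibits Mek and so holds Erk signalling off. Cells at 32 h had been kept without both inhibitors for that time. The groups set beside the Ehmt1 KO had the same culture: 2 WT lines, 1 labelled with the Ehmt1 lines and 1 with the Zic2 lines, 2 Zic2 KO clones and 2 Ehmt1/Zic2 KO clones, each at both stages. Which exons the KO lines lack was not stated in the labels used here. The labels also do not say whether the 2 WT lines are separate lines or 2 cultures of 1 line. With 2 clones or lines per genotype, an adjusted p sets a change against variation between lines of the same genotype. That variation was estimated over all 16 fitted libraries together, so it is not that of KO1 and KO2 alone.

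Ehmt1 (also named GLP) pairs with Ehmt2 (G9a) in the enzyme that places mono- and dimethyl marks on histone H3K9, a mark of silenced euchromatin. Naive cells in 2i express a set of transcription factors such as Esrrb, Klf4 and Tfcp2l1. When 2i is removed these factors are switched off and cells pass into the formative state, marked by Pou3f1, Otx2, Fgf5 and the de novo DNA methyltransferases. In mouse cells Ehmt1 and Ehmt2 are also known to help keep germline genes silent.

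The 4 Ehmt1 KO libraries held 19013882 to 25403384 counts, within the 19013882 to 28777604 of the 16 polyA libraries fitted together. Levels are in CPM, counts scaled to the TMM-normalised library size. In the targeted gene itself (Ehmt1, chr2:24790769-24919643, GRCm38.p6), clones KO1 and KO2 read 24.9 and 17.6 CPM at ESC, then 31.4 and 22.6 CPM at 32 h. The WT lines read 80.3 and 93.4 CPM at ESC, then 149 and 154 CPM at 32 h, so no KO library overlapped a WT library. The KO transcript was 0.35 ± 0.10 higher at 32 h on the log2 scale (± is the standard error of the fit throughout, adjusted p = 0.017), a call that ended without the clone as a block (adjusted p = 0.17) and without KO1 or KO2 (0.17 and 0.18). Its partner Ehmt2 had a log2 fold change of -0.09 ± 0.09 (adjusted p = 0.46). Zic2 and Zfp281, the other targeted genes, rose by 0.39 ± 0.10 and 0.44 ± 0.11 (adjusted p = 0.0064 and 0.0080); both calls ended without KO1 (0.16 and 0.075) or KO2 (0.063 and 0.13), and that of Zic2 also without the block (0.53). Olfactory receptor genes with at least 1 count made up 4.69% to 7.85% of that family in the 4 Ehmt1 KO libraries and 1.90% to 3.43% in the 4 WT libraries; the part of this in the results was not tested.

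Over all genes tested, 5509 of 15667 changed between ESC and 32 h in the Ehmt1 KO (35.2%; edgeR's quasi-likelihood test, adjusted p under 0.05), 2725 higher (17.4%) and 2784 lower (17.8%). Of these, 1355 rose and 875 fell by more than 1 on the log2 scale. The KO counts of each gene list below are to be read beside the 17.4% and 17.8% of all genes. Over all tested genes, called or not, the log2 fold changes of KO1 and KO2 had a Pearson correlation of 0.83. Of the 5509 called genes, 5508 had the same sign in both clones. No overlap between the libraries of the stages was found for 5153 of them, and for 59.6% of all tested genes. The genes were called on these same clones, so the counts among called genes are no separate evidence that the clones agree. The change was larger in KO2 than in KO1 for 1743 of the 2725 genes called higher and for 1885 of the 2784 called lower, with a median gap between the clones of 0.11 and -0.12 on the log2 scale. Without the clone as a block 3526 genes were called, without KO1 3468 and without KO2 2501.

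**Figure D1:**
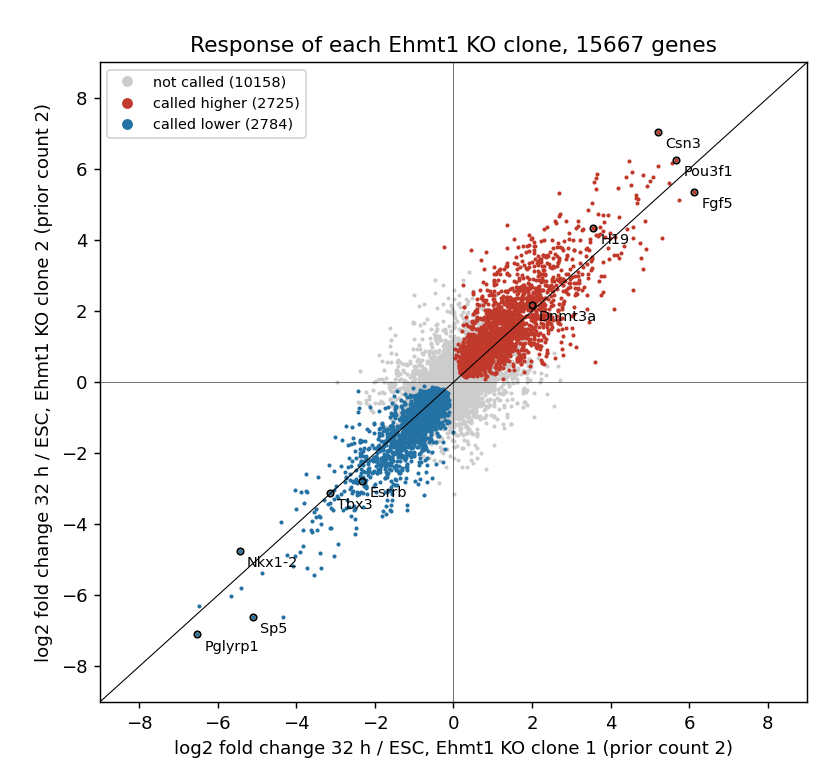
Log2 fold change from ESC to 32 h in clone KO1 (x axis) and KO2 (y axis), each from CPM with a prior count of 2, for all 15667 tested genes; red and blue points are the 2725 genes called higher and 2784 called lower, grey points were not called, and the line marks equal change. Called genes lie along the line in both directions, with Pou3f1, Fgf5 and Csn3 at the upper right and Sp5 and Pglyrp1 at the lower left.

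The strongest rises came from genes that were nearly silent in 2i. Pou3f1 (chr4:124657646-124660655), a POU transcription factor of the formative state, went from 1.33 and 1.74 CPM in KO1 and KO2 to 72.5 and 140 CPM (6.07 ± 0.17, adjusted p = 5.8e-11). Fgf5, a growth factor that marks the same state, went from 0.321 and 0.950 CPM to 28.6 and 42.5 CPM (5.84 ± 0.25, adjusted p = 2.9e-09). Car4, a membrane carbonic anhydrase, went from 0.229 and 0.317 CPM to 16.9 and 14.1 CPM (5.82 ± 0.26, adjusted p = 4.2e-09). For each of these genes both 32 h libraries stood far above both ESC libraries. Csn3, a casein, and Rbbp8nl had no count in either ESC library, and set against 3 counts over both libraries they were at least 99.7-fold and at least 70.0-fold higher at 32 h. Kynu, an enzyme of tryptophan breakdown, had 2 counts over both ESC libraries and 278 at 32 h. Btbd17, Gfra1 (the GDNF co-receptor), Tnfsf11 (the cytokine RANKL) and Atp1a4 (a sodium pump subunit) rose by 6.39 ± 0.38, 5.41 ± 0.38, 5.30 ± 0.27 and 5.27 ± 0.30. Of these, Atp1a4 showed how far the clones can differ, with 6.98 CPM in KO1 and 29.1 CPM in KO2 at 32 h.

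Among the genes with the steepest falls, several belong to the Wnt response that CHIR99021 sustains. Sp5, a direct Wnt target, went from 6.15 and 8.44 CPM to 0.0931 and 0 CPM, 294 counts over both clones against 2. Cdx2 and Cdx1, caudal homeobox factors, fell by 6.65 ± 0.50 and 6.26 ± 0.46 on the log2 scale. Pglyrp1, a peptidoglycan-binding protein, went from 37.9 and 44.8 CPM to 0.326 and 0.239 CPM (-7.19 ± 0.27, adjusted p = 6.0e-10). Trpm1, a cation channel, went from 47.4 and 138 CPM to 1.54 and 3.23 CPM (-5.24 ± 0.16, adjusted p = 1.0e-10). For both, the levels of the 2 stages were far apart in each clone. Htr5a (a serotonin receptor), Nkx1-2 (a homeobox factor), Nanos3 (a germ cell RNA-binding protein) and Wnt5b fell by 6.53 ± 0.48, 5.05 ± 0.18, 4.73 ± 0.36 and 4.66 ± 0.30.

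The naive programme was switched down in the Ehmt1 KO. Of 20 naive genes tested, 15 fell and 3 rose, with a median log2 fold change of -1.19 against -0.01 over all genes. Esrrb (chr12:86361117-86521628), an orphan nuclear receptor at the centre of the naive network, read 611 and 763 CPM at ESC in KO1 and KO2 and 122 and 112 CPM at 32 h (-2.55 ± 0.12, adjusted p = 4.2e-09). Tfcp2l1, a Grainyhead-like factor of the same network, went from 348 and 471 CPM to 59.6 and 56.6 CPM (-2.80 ± 0.13). Nanog, the homeobox factor of the naive state, went from 664 and 777 CPM to 258 and 168 CPM (-1.79 ± 0.16, adjusted p = 4.3e-06). In all 3 genes both clones fell and the stages did not overlap. In RNA of whole cultures, fewer naive cells and less of a transcript per cell cannot be told apart. Tbx3, a T-box factor, went from 192 and 210 CPM to 21.6 and 24.1 CPM (-3.14 ± 0.20). Jam2, an adhesion molecule, and Nr5a2, a nuclear receptor, fell by 2.72 ± 0.16 and 2.30 ± 0.12. The Kruppel-like factors Klf4, Klf2 and Klf5 fell by 1.84 ± 0.13, 1.41 ± 0.20 and 0.98 ± 0.13. Prdm14 and Tcl1 fell by 1.57 ± 0.17 and 1.65 ± 0.18, and Zfp42, the reporter's own gene, by 0.79 ± 0.13.

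The remaining naive genes moved little or the other way. Nr0b1, an orphan nuclear receptor, read 47.9 and 55.1 CPM at ESC, then 26.7 and 47.2 CPM at 32 h (-0.53 ± 0.16, adjusted p = 0.024), with most of the fall in KO1. Spp1, a secreted phosphoprotein, read 167 and 255 CPM at ESC, then 151 and 119 CPM at 32 h (-0.63 ± 0.17, adjusted p = 0.016), with most of the fall in KO2. Dppa3 differed between the clones far more than between the stages, at 74.6 and 10.3 CPM at ESC, then 51.4 and 5.70 CPM at 32 h (-0.66 ± 0.17, adjusted p = 0.0080). The 3 that rose were Fgf4 (0.53 ± 0.12), Dppa4 (0.96 ± 0.09) and Dppa2 (0.47 ± 0.11). The 2 not called were Gbx2, a homeobox factor (0.63 ± 0.34, adjusted p = 0.19), and Tet2, a 5-methylcytosine dioxygenase (-0.35 ± 0.18, adjusted p = 0.17), both of which the fit of only the KO libraries called (0.044 and 0.021). The calls of Nr0b1, Dppa3 and Fgf4 ended without the block (adjusted p = 0.19, 0.70 and 0.078), that of Nr0b1 without KO1 (0.43), those of Spp1, Dppa3 and Dppa2 without KO2 (0.53, 0.11 and 0.26), that of Spp1 with only the KO libraries in the fit (0.087), and that of Fgf4 without KO1 or KO2 (0.054 and 0.065). Without the block, without KO1 and without KO2 the list gave 13, 14 and 13 falling genes.

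Of 12 genes of pluripotency in general, 6 rose and 1 fell. Pou5f1 (Oct4) read 1406 and 1526 CPM at ESC, then 1383 and 1545 CPM at 32 h (-0.00 ± 0.09, adjusted p = 0.98), a value whose sign turned with DESeq2's size factors (0.01). Sox2, its partner, was the gene that fell, from 325 and 343 CPM to 154 and 183 CPM (-0.99 ± 0.11). Lin28a, which blocks let-7 processing, rose from 224 and 199 CPM to 858 and 1035 CPM in the KO (2.16 ± 0.11, adjusted p = 9.2e-09). In WT it rose from 453 and 466 CPM to 1295 and 1229 CPM, so the KO libraries lay below WT at both stages. The log2 rise of Lin28a was 0.70 ± 0.15 larger in the KO (adjusted p = 0.0086), a call that ended without the block (0.068). Without KO2 the difference for Lin28a was 0.48 and its call also ended. Its paralogue Lin28b differed the other way: it rose from 25.7 and 29.2 CPM to 47.2 and 58.3 CPM in the KO (0.94 ± 0.14) and by 1.77 ± 0.14 in WT, a difference of -0.84 ± 0.19 (adjusted p = 0.015). That call of Lin28b ended without the block (0.14), without KO1 (0.12), without WT line 1 (0.10) and with only the groups compared (0.063). Sall1 and Foxd3 rose by 0.78 ± 0.10 and 2.07 ± 0.18.

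The formative programme was switched on. Of 19 formative genes tested, 17 rose and 2 fell, with a median log2 fold change of 2.09. Otx2, a homeobox factor of the formative state, went from 20.0 and 22.1 CPM to 145 and 127 CPM (2.69 ± 0.11, adjusted p = 2.7e-09). Dnmt3a, a de novo DNA methyltransferase, went from 159 and 191 CPM to 633 and 866 CPM (2.09 ± 0.10). Sall2, a zinc finger factor, went from 10.3 and 13.9 CPM to 114 and 183 CPM (3.60 ± 0.11, adjusted p = 1.0e-10). The stages did not overlap in any of these genes. Pim2, a serine/threonine kinase, went from 94.4 and 70.0 CPM to 695 and 820 CPM (3.21 ± 0.14). Sox4, Sox3, Lef1 and Dnmt3b rose by 2.75 ± 0.25, 2.19 ± 0.20, 2.09 ± 0.14 and 1.97 ± 0.12, and Tcf15 by 1.22 ± 0.19. Etv4 (an Ets factor) and Grhl2 (a Grainyhead factor that opens epithelial enhancers) rose by less, 0.94 ± 0.15 and 0.77 ± 0.12; the call of Grhl2 ended without the block (adjusted p = 0.11). The 2 that fell were Cdh2, the N-cadherin gene (-1.05 ± 0.13), and Etv5 (-0.41 ± 0.10), whose call ended without the block (0.33) and without KO2 (0.22). Without the block 14 genes of the list rose, and without KO1 and without KO2 15 rose.

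**Figure D2:**
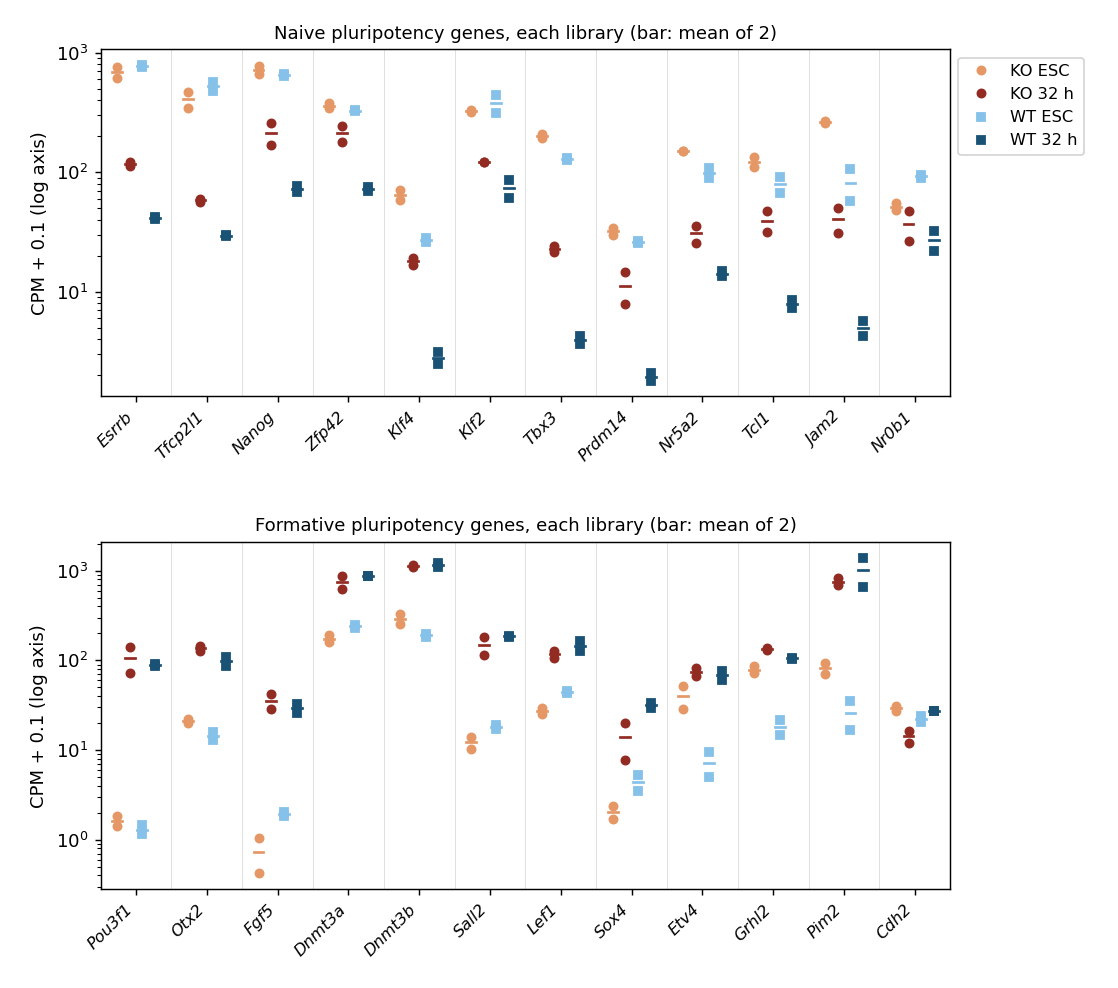
CPM plus 0.1 on a log axis for 12 naive genes (top) and 12 formative genes (bottom); each point is 1 library, circles are the Ehmt1 KO clones and squares the WT lines, light colours are ESC and dark colours 32 h, and bars are means of 2 libraries. In the upper panel the dark circles of Esrrb (122 and 112 CPM) lie above the dark squares (40.6 and 42.4 CPM), while in the lower panel the dark points of Pou3f1 and Dnmt3a lie close together.

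The response of WT cells, measured in the same way, had 7378 called genes (47.1%), 3791 higher (24.2%) and 3587 lower (22.9%). In both genotypes 1984 genes rose and 2070 fell. A further 59 rose in the Ehmt1 KO and fell in WT, and 54 fell in the KO and rose in WT. The difference itself, the change in the KO minus the change in WT, was called for 1361 genes (8.69%), 764 higher in the KO (4.88%) and 597 lower (3.81%). Without the block 291 differences were called. Without WT line 1, the line labelled with the Ehmt1 lines, 694 were called and without WT line 2 1366, and without KO1 and KO2 600 and 909.

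**Figure D3:**
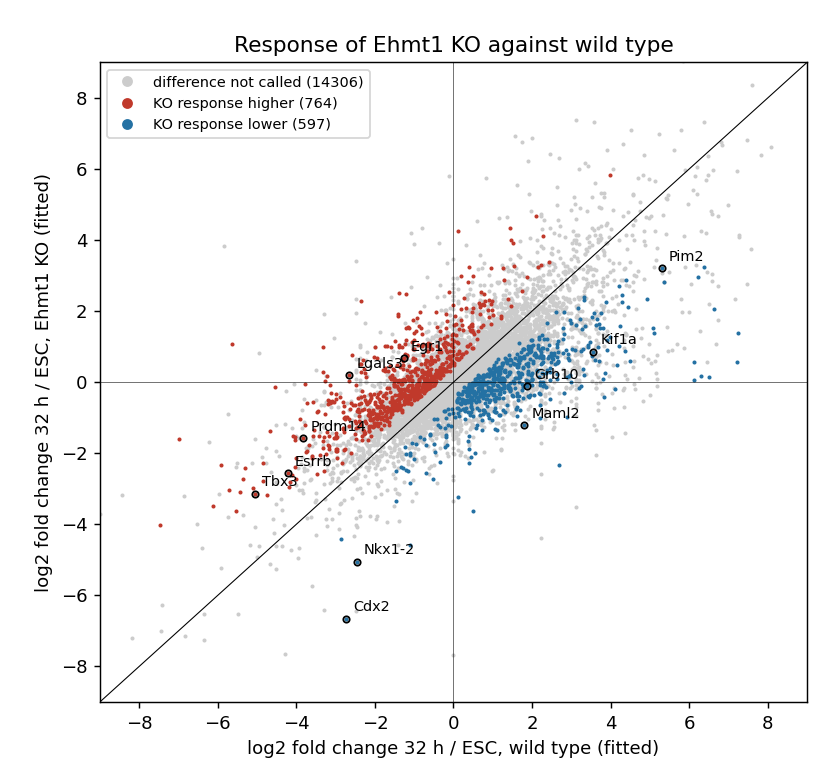
Fitted log2 fold change from ESC to 32 h in WT (x axis) and Ehmt1 KO (y axis) for tested genes within the axes (those with no count at ESC, such as Csn3, lie beyond); red points are the 764 genes whose response was higher in the KO, blue points the 597 whose response was lower, and the line marks equal responses. Esrrb, Tbx3 and Prdm14 sit above the line at the lower left, where both genotypes fell, and Kif1a and Pim2 sit below it at the right.

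Among the naive genes, 12 of 20 had a higher response in the KO and 0 a lower one, with a median difference of 1.29 against -0.01 over all genes. In WT the same 20 genes had a median log2 fold change of -2.27. Esrrb fell to 40.6 and 42.4 CPM in WT (-4.22 ± 0.13), so that its KO response was 1.67 ± 0.16 higher (adjusted p = 4.9e-05). Tfcp2l1 fell to 29.5 and 28.9 CPM in WT, a difference of 1.36 ± 0.17 (adjusted p = 0.00040). Prdm14, which represses Fgf signalling and DNA methylation genes in naive cells, fell to 1.97 and 1.70 CPM in WT against 14.5 and 7.77 CPM in the KO, a difference of 2.25 ± 0.27 (adjusted p = 0.00026). For all 3 genes the KO libraries at 32 h were above the WT libraries. The differences of Tbx3, Tcl1, Spp1, Klf4, Nanog, Zfp42, Jam2 and Nr0b1 were 1.93, 1.67, 1.56, 1.48, 1.39, 1.39, 1.30 and 1.28 on the log2 scale (adjusted p from 0.00051 to 0.0074), and that of Dppa4 was 0.46 (0.039). Dppa4 rose in both genotypes, and its KO libraries lay below WT at both stages. Its levels were 63.2 and 63.1 then 116 and 130 CPM in the KO, against 113 and 98.2 then 152 and 146 CPM in WT. Nr0b1 started lower in the KO, at 47.9 and 55.1 against 94.7 and 90.2 CPM. At 32 h it overlapped WT, at 26.7 and 47.2 against 21.7 and 31.9 CPM. Klf2, Klf5 and Nr5a2 had differences of 0.95, 0.43 and 0.51 that were not called (adjusted p = 0.073, 0.17 and 0.077). Fgf4, Tet2, Dppa2 and Dppa3 had uncalled differences of 0.56, 0.18, 0.10 and -0.10 (adjusted p = 0.060, 0.77, 0.79 and 0.92). Gbx2 pointed the other way from most of the list, with a log2 fold change of 1.95 ± 0.33 in WT against 0.63 ± 0.34 in the KO, a difference of -1.32 ± 0.47 that was not called (adjusted p = 0.14). Without the block 9 of the 20 were called higher, without KO1 11, without KO2 12, without WT line 1 7 and without WT line 2 13. The calls that ended were Jam2, Nr0b1 and Dppa4 without the block (adjusted p = 0.097, 0.088 and 0.38), Tbx3, Nanog, Spp1 and Jam2 without WT line 1 (0.090, 0.063, 0.062 and 0.13), and Dppa4 without KO1, KO2 or WT line 1 (0.090, 0.28 and 0.14) and with only the groups compared (0.086).

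Formative genes split. Of the 19, 1 had a higher response in the KO and 5 a lower one. Fgf5 was the gene with the higher response (1.86 ± 0.38, adjusted p = 0.0077); its WT ESC libraries were at 1.76 and 1.95 CPM, above both KO clones, and its 32 h libraries at 32.7 and 26.1 CPM overlapped those of the KO. That call ended without the block (adjusted p = 0.49) and without KO1 (0.069). Etv4 had a response 2.36 ± 0.22 lower in the KO (adjusted p = 4.9e-05). Its KO clones were already at 28.6 and 51.9 CPM at ESC against 4.94 and 9.37 CPM in WT, and ended at 66.4 and 83.1 CPM against 61.1 and 76.1 CPM. Pim2 (-2.09 ± 0.19, adjusted p = 5.5e-05) and Grhl2 (-1.78 ± 0.18, adjusted p = 6.4e-05) had the same shape, with KO ESC libraries above WT ESC libraries; without the block their adjusted p was 0.051 and 0.080. Cdh2 fell in the KO and had a WT change of 0.30 (difference -1.35 ± 0.18, adjusted p = 0.00047). Dnmt3b had a difference of -0.64 ± 0.16 (adjusted p = 0.023), a call that ended without the block (0.25), without KO1 (0.25) and without either WT line (0.11 and 0.065). Pou3f1, Otx2, Sall2 and Dnmt3a had differences of -0.13, -0.06, 0.24 and 0.24 that were not called.

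The level from which genes started differed between the genotypes. Of the 597 genes with a lower response in the KO, 464 (77.7%) had both KO ESC libraries above both WT ESC libraries, where 30% of all tested genes did, and 277 (46.4%) had both KO 32 h libraries below both WT ones, against 34.4% of all genes. Of the 764 genes with a higher response, 531 (69.5%) had both KO libraries above both WT libraries at 32 h, against 34.2% of all genes, and 468 (61.3%) had both KO libraries below WT at ESC, against 30.7%. The difference of responses is built from these same levels, so the shares describe it and are no separate evidence.

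Genes with the clearest differences, most of them outside the lists, showed both shapes. Lgals3, the galectin-3 gene, read 24.2 and 21 CPM at ESC, then 27.4 and 24.6 CPM at 32 h in the KO (0.20 ± 0.12, adjusted p = 0.21) and 40.8 and 44.0 CPM and then 6.23 and 7.26 CPM in WT, a difference of 2.86 ± 0.18 (adjusted p = 3.8e-06). Lgals3 thus fell in WT and did not pass the test in the KO. Anxa2 (annexin A2), Cdhr1 and Hebp1 had KO changes of 1.01 ± 0.15, 0.52 ± 0.16 and 0.31 ± 0.11 and WT changes of -1.68 ± 0.16, -2.38 ± 0.18 and -1.75 ± 0.12. Their KO changes lost the call without the block (adjusted p = 0.054, 0.076 and 0.55), and those of Cdhr1 and Hebp1 also without KO1 (0.65 and 0.46), of Hebp1 without KO2 (0.13), with DESeq2 (0.083) and with no filter (0.057). Their differences were 2.69 ± 0.22, 2.90 ± 0.24 and 2.06 ± 0.16, the last with an adjusted p of 0.053 without the block. Itga5, the fibronectin receptor subunit, rose from 15.8 and 16.1 CPM to 42.9 and 43.8 CPM in the KO and had a WT change of -0.35 ± 0.11, a difference of 1.79 ± 0.17. Lpar1 and Mme (neprilysin) fell in both genotypes and by less in the KO, with differences of 2.47 ± 0.22 and 2.54 ± 0.22; their KO falls of 0.43 ± 0.13 and 0.60 ± 0.14 lost the call without the block (0.37 and 0.081) and without KO2 (0.36 and 0.21).

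In the other direction, Kif1a, a neuronal kinesin, read 5.14 and 9.39 CPM at ESC, then 10.3 and 15.7 CPM at 32 h in the KO, and 7.70 and 6.66 CPM and then 96.5 and 74.0 CPM in WT, a difference of -2.70 ± 0.20 (adjusted p = 1.6e-05). Tek, the angiopoietin receptor, read between 66.1 and 82.6 CPM in the 4 KO libraries and went from 1.66 and 2.40 CPM to 8.51 and 11.2 CPM in WT (difference -2.38 ± 0.18). Maml2, a Notch co-activator, went from 29.5 and 40.7 CPM to 12.2 and 18.5 CPM in the KO and from 1.52 and 1.50 CPM to 4.91 and 5.64 CPM in WT (difference -3.0 ± 0.28). In Tek and Maml2 every KO library was above every WT library. Nkx1-2 fell further in the KO (difference -2.58 ± 0.24), as did Cdx2 (-3.91 ± 0.75, adjusted p = 0.011), the latter losing the call without KO2 (0.071) and with no filter on low counts (0.060). The KO rise of Kif1a, 0.86 ± 0.14, lost the call without the block (adjusted p = 0.083).

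Erk signalling is released when the Mek inhibitor is removed. Of 20 Fgf and Erk targets tested, 7 rose and 3 fell in the KO (1 fell without KO2), and 12 rose and 5 fell in WT. Dusp6, an Erk phosphatase and feedback target, went from 11.5 and 25.7 CPM to 41.5 and 81.9 CPM in KO1 and KO2 (1.76 ± 0.15, adjusted p = 8.3e-07). In WT it went from 16.0 and 18.4 CPM to 129 and 140 CPM, and the difference was -1.21 ± 0.21 (adjusted p = 0.0027), a call that ended without the block (0.45). Dusp4, Spred3 and Spry4, further feedback inhibitors, rose by 2.80 ± 0.20, 3.01 ± 0.21 and 2.39 ± 0.22 in the KO, with differences from WT that were not called. For each of these, KO2 reached a higher level than KO1 at 32 h. Etv1 read 36.5 and 31.8 CPM and then 32.7 and 36.1 CPM in the KO and rose by 1.66 ± 0.15 in WT (difference -1.65 ± 0.21, adjusted p = 0.00039). Egr1, an immediate early gene, rose by 0.68 ± 0.13 in the KO and fell by 1.26 ± 0.13 in WT (difference 1.95 ± 0.18, adjusted p = 4.9e-05); its KO rise was not called without the block (0.12). Myc had a KO change of -0.07 ± 0.16 and a WT rise of 1.00 ± 0.16 (difference -1.07 ± 0.23, adjusted p = 0.010), a call that ended without the block (0.11), without KO2 (0.073) and without WT line 2 (0.057). Epha2, an ephrin receptor, fell by 1.01 ± 0.11.

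Wnt targets went down as the Gsk3 inhibitor was removed. Of 15 tested, 9 fell and 2 rose in the KO, the same counts as in WT; 1 rose in the KO without the block, without KO1 or without KO2. Axin2, a negative feedback target, went from 167 and 115 CPM to 34.5 and 24.6 CPM (-2.25 ± 0.25, adjusted p = 0.00017). T (brachyury) went from 4.13 and 9.44 CPM to 0.465 and 0.319 CPM (-4.09 ± 0.39), and Rnf43 fell by 4.04 ± 0.72. Notum, a secreted Wnt deacylase, fell by 1.51 ± 0.13 in the KO and by 3.0 ± 0.15 in WT, a difference of 1.49 ± 0.20 (adjusted p = 0.00047). The 2 that rose were Lef1 and Lgr5; Lgr5 rose by 1.19 ± 0.35 from under 1 CPM, a call that ended without the block (adjusted p = 0.073), with DESeq2 (0.23) and without KO1 or KO2 (0.11 and 0.19). Tcf7 fell by 0.56 ± 0.09.

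The promoters of 3 genes with large changes are shown with the motif that was searched in capitals: CTTTGA, the core read by Tcf and Lef factors, for Sp5 (chr2:70474673-70474922, plus strand), and ATGCAAA, the first part of the Pou octamer, for Nanog (chr6:122707239-122707488, plus strand) and Pim2 (chrX:7878056-7878305, plus strand). The sequences are RefSeq's (GRCm38.p6), the 250 bases before the start site, 5′ to 3′ in the direction of the gene; a match on the other strand appears as TCAAAG or TTTGCAT.
Sp5: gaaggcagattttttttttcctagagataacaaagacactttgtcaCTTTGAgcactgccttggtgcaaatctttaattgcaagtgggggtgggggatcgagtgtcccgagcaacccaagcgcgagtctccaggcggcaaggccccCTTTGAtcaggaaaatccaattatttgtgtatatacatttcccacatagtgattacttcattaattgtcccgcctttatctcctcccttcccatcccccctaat
Nanog: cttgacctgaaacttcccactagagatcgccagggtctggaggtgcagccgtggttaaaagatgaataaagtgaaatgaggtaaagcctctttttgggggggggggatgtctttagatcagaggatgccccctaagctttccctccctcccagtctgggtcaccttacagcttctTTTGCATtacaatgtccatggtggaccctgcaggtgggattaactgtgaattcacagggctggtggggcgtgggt
Pim2: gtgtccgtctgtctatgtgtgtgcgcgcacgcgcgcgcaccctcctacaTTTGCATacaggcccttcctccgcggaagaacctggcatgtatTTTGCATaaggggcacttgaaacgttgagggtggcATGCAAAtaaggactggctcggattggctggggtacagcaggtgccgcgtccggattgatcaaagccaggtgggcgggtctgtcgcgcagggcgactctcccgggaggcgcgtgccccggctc
Sp5 held 2 matches, Nanog 1 and Pim2 3. Of the 27025 genes with a RefSeq promoter of 300 bases, 16.2% held CTTTGA and 4.59% held ATGCAAA on either strand. A match describes these letters and is not a measured binding site.

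Other signalling lists were mixed. Of all tested genes, 17.4% rose and 17.8% fell in the KO, and 24.2% and 22.9% in WT. A higher response in the KO than in WT was called for 4.88% of all genes. Of 11 Lif and Stat3 targets, 3 rose and 3 fell: Il6st, the gp130 receptor subunit, fell by 1.53 ± 0.12 and Gadd45g, a stress response gene, rose from 2.29 and 4.17 CPM to 33.2 and 80.6 CPM (4.09 ± 0.15, adjusted p = 6.0e-10). Of 11 Nodal targets, 2 rose and 3 fell in the KO against 2 and 7 in WT; Lefty2, a Nodal inhibitor, went from 140 and 202 CPM to 28.1 and 17.7 CPM (-2.91 ± 0.30), and Skil, a Smad repressor, rose by 1.82 ± 0.12. Single lines moved these counts: 1 Lif and Stat3 target rose without KO1 or KO2, and 5 Nodal targets rose without either WT line. Of 11 Bmp targets, 4 rose and 5 fell, and 4 had a higher response than in WT; 2 rose without KO2, and the 4 differences came to 1 without the block, 2 without KO1 and 1 without WT line 1. Id4 and Id3, inhibitors of helix-loop-helix factors, fell by 3.60 ± 0.19 and 1.09 ± 0.16, while Id2 rose by 2.92 ± 0.23. The fall of Id3 was smaller than in WT by 1.16 ± 0.23 (adjusted p = 0.0071), a call that ended without KO1 (0.075) and without WT line 1 (0.057).

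Lineage markers were checked in the same libraries. Of 9 primitive streak genes tested, 5 fell and 2 rose, and their summed level was 23.1 and 41.15 CPM at ESC, then 13.0 and 20.25 CPM at 32 h. The streak counts rested on KO2, without which 1 fell and 0 rose, and 3 fell without the block. Of 8 neural genes, 5 rose in the KO (3 without the block and 3 without KO2) and 7 in WT. Lrp2, an endocytic receptor, rose from 36.1 and 40.2 CPM to 156 and 242 CPM (2.35 ± 0.23) and by 4.92 ± 0.27 in WT, where it started at 6.47 and 12.6 CPM (difference -2.57 ± 0.34, adjusted p = 0.0027). Pax6 rose by 1.48 ± 0.25. Of 14 primitive endoderm genes, 7 rose and 1 fell, but 4 rose without the block and 3 without KO2, where the median went from 1.01 to -0.09. Dab2, an endocytic adaptor, rose by 2.24 ± 0.26 and Lamb1, a laminin chain, by 1.63 ± 0.11 (difference from WT 0.68 ± 0.15, adjusted p = 0.013, ended without the block at 0.65, without KO1 at 0.072 and without KO2 at 0.079). Of 11 trophoblast genes, 5 rose and 4 fell, but 2 rose without the block and 2 without KO1, where the median went from 1.27 to 0.04. The keratins Krt8 and Krt18 rose by 1.76 ± 0.21 and 1.80 ± 0.19, whereas Tfap2c and Tead4, factors of trophoblast stem cells, fell by 1.90 ± 0.15 and 1.96 ± 0.20. The response of Krt8 was 1.56 ± 0.28 higher than in WT (adjusted p = 0.0037, 0.27 without the block) and that of Tead4 1.79 ± 0.31 higher (adjusted p = 0.0031). Of 7 fibroblast markers tested, 3 rose and 1 fell, at a summed level of 18.3 and 20.9 CPM at ESC, then 26.5 and 31.0 CPM at 32 h; 1, 2 and 1 of them rose, and 0 fell, without the block, without KO1 and without KO2. Dcn had no count at ESC in either KO clone or WT line and 217 counts at 32 h in the KO, at least 61.8-fold higher than a floor of 3 counts. DESeq2 did not call Dcn (adjusted p = 0.092).

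**Figure D4:**
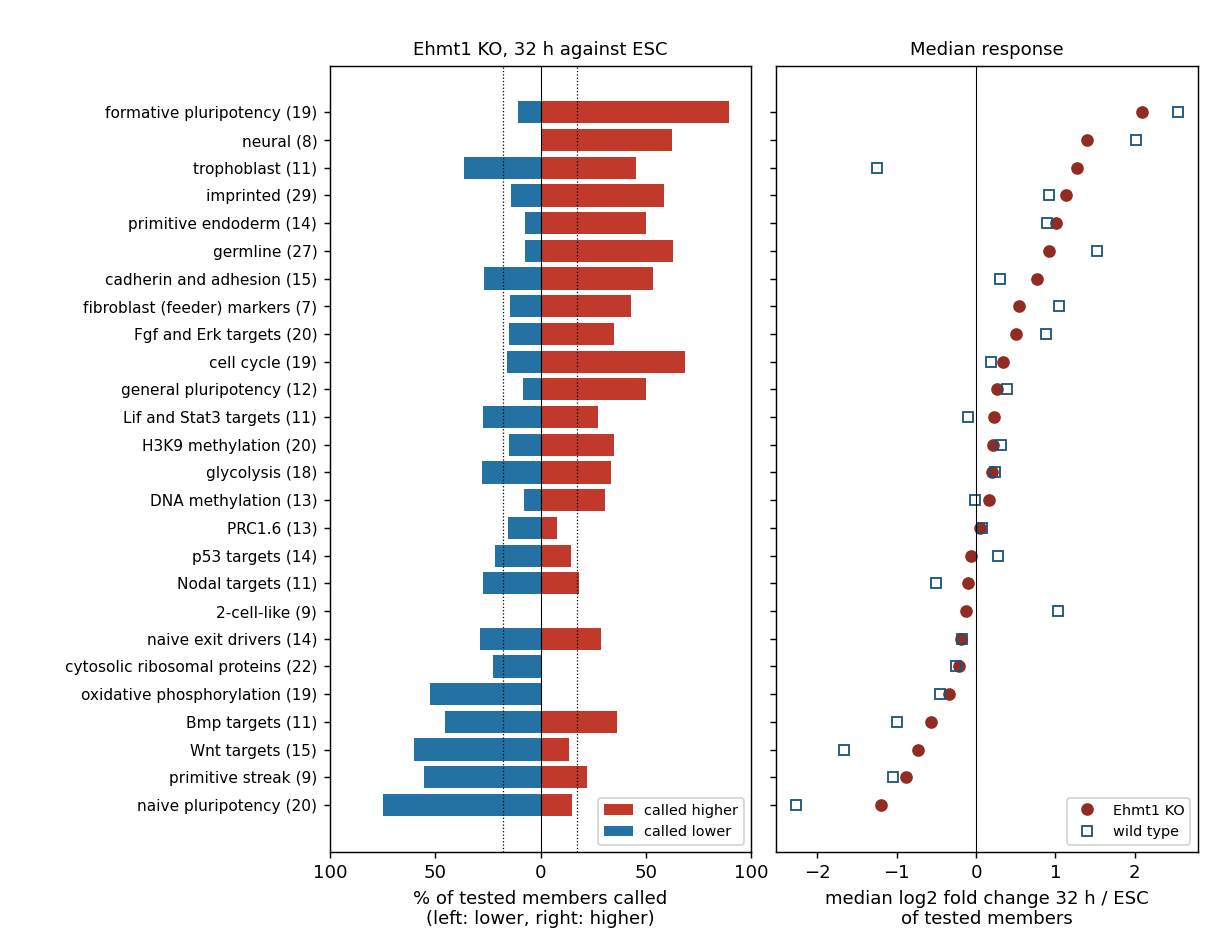
Left, the share of tested members (number in brackets) called higher (red, to the right) and lower (blue, to the left) in the Ehmt1 KO from ESC to 32 h, with dotted lines at the shares of all tested genes, 17.4% and 17.8%; right, the median log2 fold change of the members in the KO (filled circles) and in WT (open squares). The formative list lies at the top, at a median of 2.09, and the naive list at the bottom, at -1.19 in the KO and -2.27 in WT.

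Of 27 germline genes tested, 17 rose and 2 fell in the KO, with a median of 0.92, and 23 rose and 2 fell in WT, with a median of 1.53. Mael, a factor of piRNA silencing, went from 4.31 and 5.17 CPM to 12.9 and 19.7 CPM (1.76 ± 0.15, adjusted p = 8.4e-07), and in WT from 11.1 and 11 CPM to 50.2 and 48.9 CPM. Meioc, a meiotic regulator, went from 2.61 and 2.06 CPM to 13.4 and 11 CPM (2.38 ± 0.22), and in WT from 5.94 and 8.92 CPM to 57.3 and 49.5 CPM. Ddx4 (the Vasa helicase) went from 8.76 and 8.02 CPM to 15.8 and 16.1 CPM (0.92 ± 0.15). In Mael and Meioc the KO libraries lay below the WT libraries of the same stage. Zcwpw1, Tdrd1, Tdrkh, Smc1b and Tex11 rose by 2.05 ± 0.17, 1.72 ± 0.23, 1.75 ± 0.25, 1.29 ± 0.17 and 1.00 ± 0.18, and Sycp2 by 2.83 ± 0.47 from under 1 CPM. Taf7l, a germ cell TFIID subunit, rose by 1.59 ± 0.29, a call that ended without the block (adjusted p = 0.059) and without KO2 (0.056). The 2 that fell were Tex15 (-1.44 ± 0.17) and Tdrd9 (-1.78 ± 0.41), the latter not called without KO2 (0.15) or with DESeq2 (0.050). Without the block, without KO1 and without KO2 the list gave 13, 16 and 10 rising genes.

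Some germline genes were high in the KO at both stages. Rpl10l, a testis copy of a ribosomal protein, read 148 and 158 CPM at ESC, then 146 and 163 CPM at 32 h in the KO (0.01 ± 0.10, adjusted p = 0.92), and 23.3 and 28.0 CPM and then 37.4 and 39.7 CPM in WT. Its difference of response was -0.58 ± 0.14 (adjusted p = 0.021), which ended without the block (0.20), in the fit of only the groups compared (0.058), without WT line 1 (0.11) and without KO1 or KO2 (0.16 and 0.082). Smc1b, a meiotic cohesin subunit, read 20.0 and 11 CPM and then 43.7 and 30.7 CPM in the KO, and 0.570 and 0.751 CPM and then 3.95 and 2.61 CPM in WT. The Magea genes, X-linked cancer-testis genes, were read in all 4 KO libraries and were near 0 in WT: the 6 tested summed to 97.9 and 100.5 CPM at ESC, then 110 and 109 CPM at 32 h in the KO, and to 0 to 0.132 CPM in the 4 WT libraries. Magea4, the highest, read 45.7 and 49.6 CPM and then 44.9 and 47.2 CPM (-0.05 ± 0.11, adjusted p = 0.77). None of the 6 was called in the KO response by edgeR or DESeq2 (3 of 6 at an unadjusted p under 0.05 with edgeR), and Magea3, Magea8 and Magea10 came nearest, at 0.57 ± 0.22, 0.34 ± 0.15 and 0.32 ± 0.15 (adjusted p = 0.064, 0.094 and 0.11). The Magea copies are near-identical, so reads may be split between them, and the counting rule is not given in the sources used here. Of 9 genes of the 2-cell-like state tested, 0 were called in the KO by edgeR (1 at an unadjusted p under 0.05) and 4 rose in WT; without KO1, 1 fell in the KO.

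**Figure D5:**
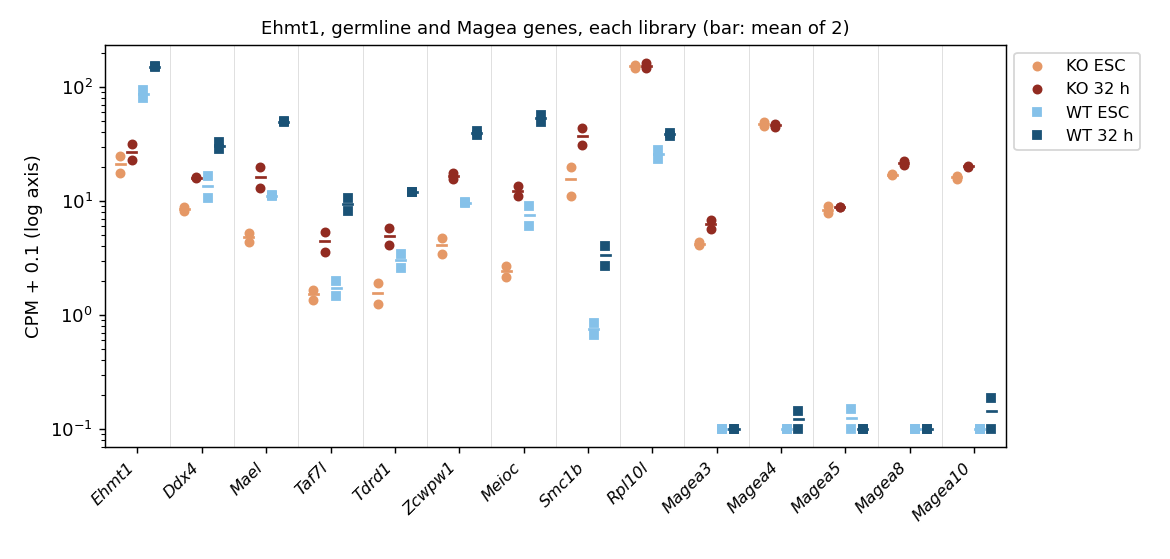
CPM plus 0.1 on a log axis for Ehmt1, 8 germline genes and 5 Magea genes; each point is 1 library, circles are the Ehmt1 KO clones and squares the WT lines, light colours are ESC and dark colours 32 h, and bars are means of 2 libraries. Mael and Meioc rise from light to dark in both genotypes with the KO lower, while Rpl10l and the Magea genes lie far above WT at both stages.

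Many germline promoters carry the E-box CACGTG, which Max-containing complexes bind. It was found in 12 of the 23 tested germline genes with a RefSeq promoter (52.2%), in 9 of the 15 that rose and in 3 of the other 8, where 7.24% of all 27025 promoters of 300 bases held it. It reads the same on both strands. The motif holds a CpG, and the median count of CpG per promoter was 20 in the 23 germline genes and 7 in all 27025. The part of this in the shares was not tested. For 3 of the genes that rose, Mael (chr1:166238745-166238994, minus strand), Ddx4 (chr13:112652311-112652560, minus strand) and Taf7l (chrX:134476491-134476740, minus strand), the 250 bases before the start are shown 5′ to 3′ with CACGTG in capitals (RefSeq, GRCm38.p6).
Mael: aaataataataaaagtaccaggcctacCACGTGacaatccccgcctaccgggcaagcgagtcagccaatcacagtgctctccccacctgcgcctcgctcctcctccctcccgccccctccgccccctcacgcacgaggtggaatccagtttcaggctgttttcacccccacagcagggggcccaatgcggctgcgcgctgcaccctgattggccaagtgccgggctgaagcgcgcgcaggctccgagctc
Ddx4: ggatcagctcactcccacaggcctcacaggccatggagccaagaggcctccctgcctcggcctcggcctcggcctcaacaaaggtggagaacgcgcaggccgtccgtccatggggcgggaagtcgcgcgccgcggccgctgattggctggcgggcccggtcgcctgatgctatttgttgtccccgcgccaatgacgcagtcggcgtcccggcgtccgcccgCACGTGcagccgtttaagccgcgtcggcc
Taf7l: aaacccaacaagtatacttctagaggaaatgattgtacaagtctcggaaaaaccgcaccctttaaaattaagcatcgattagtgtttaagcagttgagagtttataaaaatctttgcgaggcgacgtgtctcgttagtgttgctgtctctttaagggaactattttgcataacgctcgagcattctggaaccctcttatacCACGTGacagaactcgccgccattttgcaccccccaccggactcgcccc
The first base of the match lies 223 bases before the start site in Mael, 29 in Ddx4 and 49 in Taf7l.

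Of 20 genes of H3K9 methylation tested, 7 rose and 3 fell in the KO; Cbx1 (heterochromatin protein HP1 beta) and the demethylase Kdm4c rose by 0.99 ± 0.12 and 0.71 ± 0.10, and the demethylase Kdm3b fell by 0.73 ± 0.10. Without the block, without KO1 and without KO2, 3 genes of this list rose in each case and 2, 2 and 1 fell. Of 13 genes of DNA methylation, 4 rose and 1 fell (6 and 2 without either WT line). Dnmt3l, the cofactor of the de novo enzymes, went from 218 and 219 CPM to 534 and 571 CPM (1.34 ± 0.22, adjusted p = 0.0019), and Tdg, a base excision enzyme, rose by 0.98 ± 0.11. The maintenance enzyme Dnmt1 and its partner Uhrf1 had changes of 0.09 ± 0.08 and 0.17 ± 0.08 that were not called. The fit of only the KO libraries called Uhrf1 (adjusted p = 0.049). Tet3, a 5-methylcytosine dioxygenase, read 23.8 and 23.0 CPM and then 26.5 and 36.2 CPM in the KO and went from 4.33 and 7.61 CPM to 34.4 and 29.7 CPM in WT (difference -2.04 ± 0.28, adjusted p = 0.00082).

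The clones labelled Ehmt1/Zic2 KO were compared with the Ehmt1 KO clones. Zic2 in double KO clones 1 and 2 read 141 and 66.5 CPM at ESC, then 208 and 77.3 CPM at 32 h. At each stage clone 1 was above the WT lines and clone 2 below them, so the level does not check the Zic2 label. The response of the double KO differed from that of the Ehmt1 KO for 17 genes (0.109%), 11 higher (0.0702%) and 6 lower (0.0383%). Esrrb ended at 215 and 246 CPM in the double KO against 122 and 112 CPM in the Ehmt1 KO, from 597 and 671 CPM at ESC (difference 1.09 ± 0.16, adjusted p = 0.028). Klf4 ended at 23.0 and 25.7 CPM in the double KO, from 39.5 and 36.6 CPM (difference 1.19 ± 0.18, adjusted p = 0.028). In the Ehmt1 KO it went from 58.2 and 70.4 CPM to 16.7 and 19.1 CPM, so the double KO also started lower. Id3 went from 14.8 and 17.8 CPM to 32.4 and 25.2 CPM (difference 1.91 ± 0.22, adjusted p = 0.0050). For Esrrb and Klf4 the double KO libraries at 32 h lay above those of the Ehmt1 KO, and for Id3 the direction of change was opposite. Tfap2c had a difference of 1.38 ± 0.20, and Sall2 and Pim2 of -1.36 ± 0.15 and -1.11 ± 0.19. Without the block the calls of Esrrb, Klf4, Sall2, Tfap2c and Pim2 ended (adjusted p from 0.31 to 1.00), and without KO2 those of all 6 named genes ended (0.12 to 0.32). Without double KO clone 1 those of Esrrb, Klf4, Id3, Tfap2c and Pim2 ended (0.13, 0.065, 0.055, 0.065 and 0.31), and without clone 2 those of Klf4 and Pim2 (0.052 and 0.13). The call of Pim2 also ended with DESeq2's size factors (0.050), the stricter filter (0.069) and only the groups compared (0.13). Single clones decided the count: without KO1 99 genes were called, without KO2 0 (776 at an unadjusted p under 0.05), without double KO clone 1 1 and without clone 2 50. Without the block 1 gene was called, with DESeq2 78 and with no filter 104. The responses of the Ehmt1 KO and of the libraries labelled Zic2 KO differed for 1402 genes (8.95%), 768 higher in the Ehmt1 KO (4.9%) and 634 lower (4.05%). In the libraries labelled Zic2 KO the Zic2 level was not below WT, at 107 and 149 CPM at ESC, then 156 and 228 CPM at 32 h, against 111 and 105 CPM and 146 and 144 CPM in WT, so the count does not check those labels.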

How the data were processed

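The authors deposited whole-number counts per Entrez gene (24116 rows) for 24 libraries at ESC and 32 h, per the file headers; a separate 16 h table is not used here. The submitters' processing notes name the build GRCm38 (mm10) and edgeR. The aligner, counter, strand setting, annotation and filter used were not given in the sources used here, so antisense, overlapping and multi-copy genes are uncertain. Libraries are TruSeq mRNA, per the labels' protocols. 0 columns matched no sample. Symbols and positions come from RefSeq GRCm38.p6 (24061 rows matched).

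The 16 polyA libraries were fitted together with edgeR 4.0.16 (R 4.3.3): TMM, filterByExpr (minimum count 10, total 15; 15667 genes), robust quasi-likelihood test, a term for each of 8 lines as block and a 32 h term per genotype, 4 residual degrees of freedom, Benjamini-Hochberg over all genes, called at 0.05. Every adjusted p comes from this fit unless DESeq2 1.42.0 or another setting is named. A difference of responses is the contrast of 2 such terms. The block follows the line: both stages of a clone carry its number (correlation of deviations 0.462 in the Ehmt1 KO, 0.0467 in WT). The fit was also run on simulated counts with known changes. These held no differences between lines, so they cannot check the block.

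The members and gene lists were chosen with earlier results of these data known. Named genes are the targeted genes, up to 15 per direction with the largest called fold (5 CPM or more in the higher stage, no overlap), list members (any of the main lists, otherwise up to 6 by adjusted p), up to 8 per direction per difference of response, genes of opposite direction or wide clone spread, and Xist. Results were recomputed without the block, with DESeq2's size factors, with DESeq2, with no filter, with at least 1 CPM in at least 4 libraries, with only the groups compared, and without each line. A result on 1 gene that the rule names is not reported here.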

Additional observations from a re-analysis of the deposited data

Results flagged for a closer look

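The change from ESC to 32 h differed between genotypes by a test of the difference itself (edgeR's quasi-likelihood test) for 1361 genes between Ehmt1 KO and WT, for 17 between Ehmt1/Zic2 KO and Ehmt1 KO, and for 1402 between Ehmt1 KO and the libraries labelled Zic2 KO. The values that follow are log2 differences of response.

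Compared with WT, the Ehmt1 KO response was higher for the naive genes Prdm14 (2.25), Tbx3 (1.93), Esrrb (1.67), Tcl1 (1.67), Spp1 (1.56), Klf4 (1.48), Nanog (1.39), Zfp42 (1.39), Tfcp2l1 (1.36), Jam2 (1.30), Nr0b1 (1.28) and Dppa4 (0.46). It was also higher for Fgf5 (1.86), Lin28a (0.70), Egr1 (1.95), Notum (1.49), Id3 (1.16), Tead4 (1.79), Krt8 (1.56) and Lamb1 (0.68). Outside the lists it was higher for Cdhr1 (2.90), Lgals3 (2.86), Anxa2 (2.69), Mme (2.54), Lpar1 (2.47) and Hebp1 (2.06). In the adhesion list it was higher for the integrin gene Itga5 (1.79).

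The response was lower than in WT for the formative genes Etv4 (-2.36), Pim2 (-2.09), Grhl2 (-1.78), Cdh2 (-1.35) and Dnmt3b (-0.64). It was also lower for Cdx2 (-3.91), Etv1 (-1.65), Dusp6 (-1.21), Lin28b (-0.84), Myc (-1.07), Lrp2 (-2.57), Tet3 (-2.04), Grb10 (-1.97) and Rpl10l (-0.58). Outside the lists it was lower for Maml2 (-3.0), Kif1a (-2.70), Nkx1-2 (-2.58) and Tek (-2.38). Between the Ehmt1/Zic2 KO and the Ehmt1 KO, the response was higher for Id3 (1.91), Tfap2c (1.38), Klf4 (1.19) and Esrrb (1.09) and lower for Sall2 (-1.36) and Pim2 (-1.11).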

How the results depend on the processing

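Without the replicate block, that is without each line paired with itself across the stages, the Ehmt1 KO response had 3526 called genes (3523 shared with the paired fit), the difference from WT 291, the difference of the Ehmt1/Zic2 KO 1 and the difference from Zic2 KO 343. The difference of the Ehmt1/Zic2 KO had 78 calls with DESeq2, 104 with no filter, 10 with the stricter filter and 8 with only the groups compared, where the difference from Zic2 KO had 2737. Leaving out 1 line at a time gave 2501 to 3468 calls for the Ehmt1 KO, 4826 to 6553 for WT, 600 to 1366 for the difference from WT, 0 to 99 for that of the Ehmt1/Zic2 KO (0 without KO2 by edgeR, 776 at an unadjusted p under 0.05) and 436 to 927 for that from Zic2 KO. With DESeq2's size factors 5472 genes were called in the Ehmt1 KO, with DESeq2 4210, with no filter 5458, with the stricter filter 5183 and with only its own libraries 5634. Uncalled log2 changes turned sign for Pou5f1 (0.013 with DESeq2's size factors, 0.013 with DESeq2, 0.0040 without KO1 and -0.025 without KO2) and, without KO1 and without KO2 in that order, for Etv1 (0.17 and -0.16), Myc (-0.19 and 0.042), Rpl10l (0.032 and -0.018) and Magea5 (0.19 and -0.026). The cause was not tested. With 1 clone left, its spread is assumed to be that of the other lines. Genes of a few counts, such as Sp5 and Kynu at their low stage, have no precise fold change at these depths.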

Other observations

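Imprinted genes and cell cycle genes were mostly higher at 32 h in the Ehmt1 KO. Of 29 imprinted genes tested, 17 rose and 4 fell (22 and 4 in WT; 2 fell without KO2), with a median log2 fold change of 1.14 against -0.01 over all genes. H19, a noncoding RNA, went from 3.95 and 5.38 CPM in KO1 and KO2 to 47.4 and 111 CPM (4.0 ± 0.20), and its WT lines differed at 32 h, at 37.3 and 2.90 CPM. Igf2, its neighbour and a growth factor, rose by 2.93 ± 0.27, and Snrpn and Mest by 1.56 ± 0.10 and 1.14 ± 0.11. Grb10, a growth inhibitor, read 48.2 and 61.4 CPM and then 42.3 and 60.3 CPM in the KO and went from 34.9 and 56.9 CPM to 157 and 169 CPM in WT (difference -1.97 ± 0.19, adjusted p = 4.9e-05 by edgeR, 0.094 without the block). Of 19 cell cycle genes 13 rose and 3 fell, but 8 rose without the block, 3 without KO1 and 6 without KO2; Ccne1 (cyclin E1) rose by 0.88 ± 0.09. Cdkn1a, the p21 inhibitor, went from 217 and 230 CPM to 82.0 and 69.8 CPM (-1.56 ± 0.13). Of 14 p53 targets 2 rose and 3 fell, where 17.4% and 17.8% of all tested genes did. The median log2 fold change of these targets was -0.06, and -0.005 without KO2.

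Of 19 genes of the respiratory chain tested, 10 fell and 0 rose in the KO (15 and 0 in WT), and 6, 3 and 7 fell without the block, without KO1 and without KO2. Cox6b1 and Cox5a, cytochrome oxidase subunits, fell by 0.82 ± 0.11 and 0.69 ± 0.13. Of 22 cytosolic ribosomal protein genes 5 fell, but 1, 0 and 2 under the same settings and 11 without either WT line. Of 18 glycolysis genes 6 rose and 5 fell, but 2 and 3 without KO2. The lactate transporter Slc16a3 went from 94.7 and 59.0 CPM to 449 and 449 CPM (2.58 ± 0.28), the glucose transporter Slc2a1 from 251 and 315 CPM to 641 and 893 CPM (1.43 ± 0.09), and Pfkp, a phosphofructokinase, fell by 0.76 ± 0.09. Of 15 adhesion genes 8 rose and 4 fell (2 fell without the block or without KO2): Epcam rose by 2.55 ± 0.17 and Zeb2, a repressor of E-cadherin, by 3.92 ± 0.32 from under 1 CPM. Xist, the RNA of X inactivation, went from 6.61 and 5.54 CPM to 29.9 and 59.7 CPM in the KO and from 1.38 and 1.95 CPM to 11.8 and 10.3 CPM in WT (difference 0.07 ± 0.42, adjusted p = 0.96).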
